A study of Mus musculus with 8 samples.

Results

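Hormone-sensing luminal genes were examined in breast tumors of mice by chromatin immunoprecipitation sequencing (ChIP-seq) of H3K27ac, an acetyl mark on a lysine of histone H3. The group held 8 genes out of 21938 protein-coding genes of the annotation. These were the hormone receptor genes Esr1 and Pgr, the transcription factor genes Foxa1, Gata3 and Tbx3, the coregulator gene Cited1, the paracrine ligand gene Tnfsf11 and the surface marker gene Prom1. They were chosen by name for their place in the hormone-sensing luminal lineage, and peaks were collected over each gene body plus 50 kb on either side, called the window here (mm10, GENCODE M21). Control tumors (n = 2) were of genotype PyMT;Rag1KO and test tumors (n = 2) of genotype K14-TSLPtg;PyMT;Rag1KO, all in Balb/c mice that had received wild-type (wt) CD4+ T cells when 4 weeks old. PyMT is the polyoma middle T oncogene, driven in mammary epithelium by the MMTV promoter, K14-TSLPtg is a transgene for the epithelial cytokine TSLP (thymic stromal lymphopoietin), driven by the promoter of K14, a keratin of basal epithelium, and Rag1 deletion removes host lymphocytes of the T and B lineages. The tumors were taken at terminal size, each from a separate mouse, and in the titles controls are named tumor and tests are named cyst. According to the study, test tumors were of lower grade, and no grade or cell composition is stated for a given tumor, so genotype, grade and composition cannot be told apart.

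H3K27ac is deposited at promoters and enhancers that are in use. In the mammary gland, estrogen and progesterone act on a minority of luminal cells that carry their receptors, and these cells pass the signal to neighbours through secreted ligands such as RANKL, the product of Tnfsf11. FOXA1 opens chromatin for the estrogen receptor, GATA3 maintains luminal identity, TBX3 and CITED1 mark or assist receptor-positive cells, and Prominin-1, the product of Prom1, marks the hormone-sensing luminal cells at the surface. MMTV-PyMT tumors are known to lose hormone receptors as they advance.

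The 4 peak lists held between 59762 and 69861 intervals that covered between 64.3 and 73.1 Mb, and the depth behind them is unknown. Of all protein-coding genes, between 52.0% and 54.1% had a promoter peak in a given tumor, and 49.6% had one in every tumor. The promoters of 11 of 11 epithelial and luminal marker genes had a peak in every tumor. Promoters of fibroblast markers had peaks in 5 and 4 of 12 genes for the control tumors, 4 for test 1 and 0 for test 2. In the same order of tumors, endothelial promoters had peaks in 5, 4, 3 and 0 of 10 genes and basal myoepithelial promoters in 5, 1, 3 and 0 of 7 genes. Test 2 thus stood apart by having no promoter peak for any marker of these 3 lists, and differences that move by over 1.5 times without it are given both ways. Hepatocyte markers, for a tissue that should be absent, had 0 of 8 promoters with a peak in any tumor, and neuronal markers had 1 of 8 (Gad1) in control 2 and 0 in the others. As the tissue was bulk, fewer cells that carry the mark and less mark per cell cannot be told apart.

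Peaks in the windows were uneven across the 8 genes. In each tumor, the windows of Gata3, Prom1 and Esr1 were covered, those of Foxa1 and Cited1 were not covered in any tumor, and those of Tbx3, Tnfsf11 and Pgr were covered in part of the tumors. Of all protein-coding genes, 14.8% had no coverage in any tumor. A peak within 1 kb of the gene start was present in all 4 tumors for 3 of the 8 genes, where 49.6% of all genes had one, and in no tumor for 4 of the 8 genes, where 42.8% of all genes had none. Per tumor, 3, 4, 4 and 3 of the promoters had a peak in control 1, control 2, test 1 and test 2. Gata3 alone held 60.8%, 70.8%, 71.6% and 57.6% of the bases covered over the 8 windows in these tumors.

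**Figure D1:**
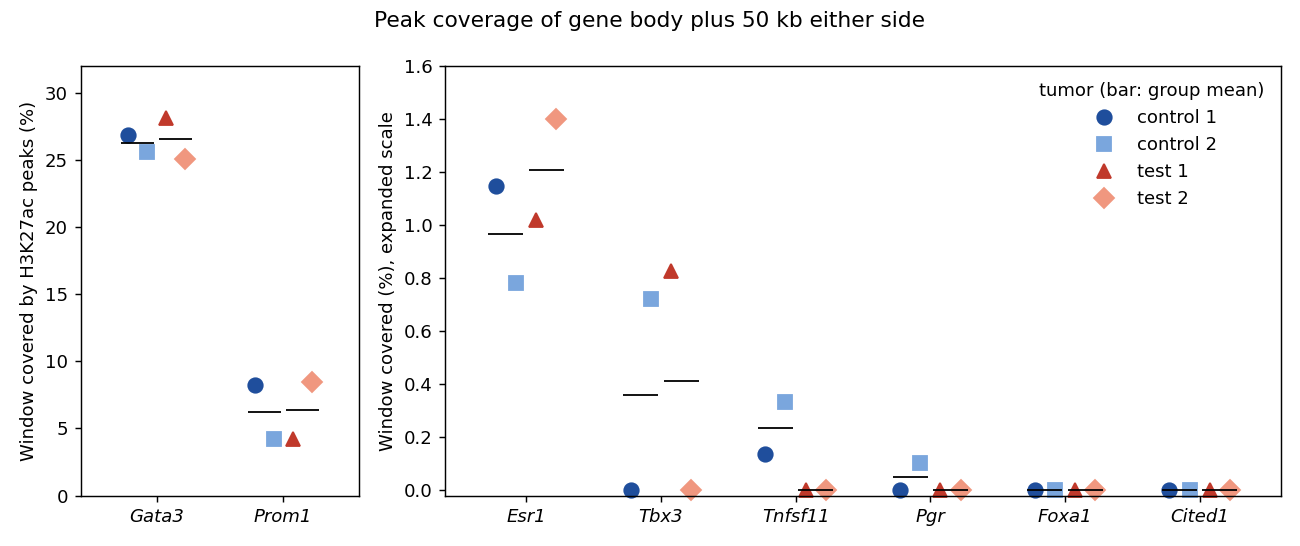
Percent of each window (gene body plus 50 kb either side) in H3K27ac peaks, with 1 point per tumor and a bar at the mean of the 2 tumors of a group. The left panel holds Gata3 and Prom1 and the right panel the other 6 genes on an expanded scale. Gata3 lay between 25.0% and 28.1% in every tumor, and Foxa1 and Cited1 lay at 0.

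To show the starts that differed most in the mark, the 250 bases before the RefSeq start are printed for Gata3, which was acetylated in every tumor, and for Foxa1 and Pgr, which were not in any. They are written 5′ to 3′ on the strand of the gene, from build GRCm38.p6 (the assembly of mm10). The Gata3 sequence is chr2:9878601-9878850 (minus strand), the Foxa1 sequence chr12:57546112-57546361 (minus strand) and the Pgr sequence chr9:8899583-8899832 (plus strand). Capitals mark matches, on either strand, to the letters of 5 motifs, and a match describes letters only. The estrogen response element was searched as its full palindrome with a spacer of any 3 bases. The forkhead motif was TGTTTAC. For GATA factors AGATAA was used, and matches to different motifs could overlap. AP-2 was searched as GCCNNNGGC and STAT as TTCNNNGAA.
Gata3 start: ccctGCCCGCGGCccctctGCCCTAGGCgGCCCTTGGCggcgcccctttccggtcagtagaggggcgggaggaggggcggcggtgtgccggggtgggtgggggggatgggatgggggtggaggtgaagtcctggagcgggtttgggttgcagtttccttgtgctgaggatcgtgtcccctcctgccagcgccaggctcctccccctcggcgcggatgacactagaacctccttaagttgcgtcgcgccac
Foxa1 start: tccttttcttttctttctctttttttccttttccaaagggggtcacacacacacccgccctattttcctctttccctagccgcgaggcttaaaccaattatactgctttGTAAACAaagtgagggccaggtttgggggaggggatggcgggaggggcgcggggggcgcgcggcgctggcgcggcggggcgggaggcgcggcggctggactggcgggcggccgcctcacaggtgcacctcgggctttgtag
Pgr start: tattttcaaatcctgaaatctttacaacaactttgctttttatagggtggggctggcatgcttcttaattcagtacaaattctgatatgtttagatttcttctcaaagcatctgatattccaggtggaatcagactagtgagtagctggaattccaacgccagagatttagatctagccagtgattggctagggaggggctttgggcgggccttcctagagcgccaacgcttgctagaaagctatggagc
Peaks covered all 300 bases of the Gata3 promoter in the table (250 before and 50 after the start) in every tumor, and 0 bases of the Foxa1 and Pgr promoters in any. This Gata3 start lay 11.4 kb inside the gene as annotated by GENCODE. The Gata3 promoter held 3 AP-2 matches, a motif present in 16.6% of the 32851 promoters in the table. The Foxa1 promoter held 1 forkhead match, found in 3.65% of promoters, and the Pgr promoter held 0 matches to any of the 5. The Foxa1 promoter held 26 CpG, the Gata3 promoter 22 and the Pgr promoter 6, against a median of 7 over the table, so the unmarked starts lay on either side of the median.

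Esr1 (ENSMUSG00000019768, chr10:4611593-5005614, plus strand), which encodes estrogen receptor alpha, had an acetylated promoter in every tumor. Its window of 494 kb held 7 peaks in control 1 and 4 in control 2, and 6 in test 1 and 7 in test 2. These covered 1.14%, 0.783%, 1.02% and 1.40% of the window. Test 2 was highest and control 2 lowest, and the groups overlapped. The mean was 0.964% ± 0.256 (SD, n = 2) for control and 1.21% ± 0.269 (SD, n = 2) for test tumors, a difference of 0.245 percentage points that was smaller than either SD (exact permutation test, two-sided, p = 0.667, where the smallest p this design allows is 0.333). The difference was 0.0542 percentage points without test 2 and 0.0638 without control 2, against 0.435 without test 1 and 0.426 without control 1, where every test value exceeded every control value. Esr1 coverage exceeded that of 30.0%, 26.6%, 28.8% and 33.0% of all protein-coding genes in the 4 tumors, in the order given above.

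Joined across tumors, the Esr1 peaks formed 8 regions, of which 7 lay between -6.21 and 20.7 kb from the gene start. Distances are counted along the direction of transcription, to the centre of a region, and are negative upstream. The promoter region was 2516 bp wide and was covered over 2173 bp in control 1 and 2025 bp in control 2, and 1378 bp in test 1 and 1882 bp in test 2. An intronic region at 9.49 kb was covered over 1402, 1328, 1602 and 1418 bp. The region at -6.21 kb had peaks in all 4 tumors, over 638, 330, 332 and 1584 bp, but no base of it (0 bp) was in a peak in all of them. The peaks of control 2 and test 1 did not touch there and were joined through the wide peak of test 2. The intronic region was thus of similar width in every tumor, with 1328 bp common to all.

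The other Esr1 regions did not follow the groups. An intronic region at 7.22 kb had no peak in test 2, and another at 20.7 kb had none in control 2. The region at -1.12 kb was found in control 1 and test 2, over 216 and 522 bp. Test 2 alone held 2 further regions, 200 bp at -1.71 kb and 161 bp at 421 kb, the latter inside Syne1. Later annotated starts of Esr1, at 98.6, 101, 311 and 325 kb, had no peak within 1 kb in any tumor, so the mark lay at the 5′ end of the gene.

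The 300 bases at the centres of these Esr1 regions outside the promoter are printed to set a shared sequence beside a variable one. At 9.49 kb, peaks covered all 300 bases in every tumor. At -6.21 kb they covered 300 bases in both control 1 and test 2, 92 in control 2 and 0 in test 1. They are chr10:4605229-4605528 and chr10:4620936-4621235, plus strand, with motif matches in capitals as above.
Esr1 at -6.21 kb: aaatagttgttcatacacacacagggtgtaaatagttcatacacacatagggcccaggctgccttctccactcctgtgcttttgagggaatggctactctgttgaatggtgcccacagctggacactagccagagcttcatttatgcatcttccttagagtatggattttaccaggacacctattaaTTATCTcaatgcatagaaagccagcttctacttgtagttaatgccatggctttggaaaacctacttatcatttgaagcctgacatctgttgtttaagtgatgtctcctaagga
Esr1 at 9.49 kb: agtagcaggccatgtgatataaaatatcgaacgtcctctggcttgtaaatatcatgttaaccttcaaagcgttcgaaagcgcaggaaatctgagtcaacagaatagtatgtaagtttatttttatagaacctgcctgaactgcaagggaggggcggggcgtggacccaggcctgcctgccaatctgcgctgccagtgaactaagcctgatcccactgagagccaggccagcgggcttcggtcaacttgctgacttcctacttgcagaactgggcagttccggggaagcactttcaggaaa
The upstream sequence held 1 GATA match, written here as its reverse complement. Among the central 300 bases of all 91238 joined regions, 12.6% held this motif. The intronic sequence held 0 matches to the 5 motifs and 11 CpG.

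Pgr (ENSMUSG00000031870, chr9:8899833-8968611, plus strand), which encodes the progesterone receptor and is a classical estrogen target, had no peak at its promoter or in its gene body in any tumor. The window of 169 kb held 1 peak in control 2, of 171 bp at 103.5 kb inside the neighbouring gene Arhgap42, and 0 in the other tumors. In control 2, 62013 of the 67850 peaks were wider than this. The peak nearest to the Pgr start was 67.8 kb away in control 1, 103 kb in control 2, 67.9 kb in test 1 and 130 kb in test 2. The coverage of 0.101% in control 2 against 0 in the others gave no separation of the groups (exact permutation test, two-sided, p = 1).

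Foxa1 (ENSMUSG00000035451, chr12:57540628-57546916, minus strand) had 0 peaks in its window of 106 kb in any tumor. The nearest peak lay 105 kb from the start in control 1, control 2 and test 2, and 315 kb in test 1. The start of Mipol1, a gene that ends inside this window and starts outside it, had a promoter peak in all 4 tumors, whereas Ttc6, whose start is in the window, had none in any. The missing mark at Foxa1 was therefore shared by both groups. Cited1 (ENSMUSG00000051159, chrX:102247381-102252181, minus strand), a transcriptional coregulator of the estrogen receptor, likewise had 0 peaks in its window of 105 kb. There the nearest peak was 62.8 kb from the start in every tumor. Hdac8, which overlaps the Cited1 window and starts outside it, had a promoter peak in all 4. No test applied to Foxa1 or Cited1, as each value was 0.

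Gata3 (ENSMUSG00000015619, chr2:9857078-9890034, minus strand) was the most broadly acetylated of the 8 genes. Its window of 133 kb held 11 peaks in control 1 and 7 in control 2, and 13 in test 1 and 13 in test 2. They covered 26.8%, 25.6%, 28.1% and 25.0% of the window, against a median over all protein-coding genes of 3.55%, 3.50%, 3.65% and 3.26%. Test 1 was highest, test 2 was lowest and the control tumors lay between, so the groups overlapped. The mean was 26.2% ± 0.856 (SD, n = 2) for control and 26.5% ± 2.16 (SD, n = 2) for test tumors, which differed by 0.338 percentage points (exact permutation test, two-sided, p = 1). Its direction was not stable. The difference was 1.86 percentage points without test 2 and 0.944 without control 1, against -1.19 without test 1 and -0.267 without control 2. It was 0.768 within 100 kb either side of the gene and 0.935 with peaks within 1 kb joined, against -2.14 within 10 kb and -0.218 with peaks at least 1 kb wide. Relative to the total of each tumor it was 1.03, and over the bases nearest to the Gata3 start 0.170, and under both of these settings Gata3 was higher in both test tumors. Gata3 exceeded 98.3%, 98.1%, 98.2% and 98.7% of all genes in coverage.

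Most of the Gata3 signal came from a domain over the gene itself. Peaks covered 91.6% of the gene body in each control tumor, 92.3% in test 1 and 82.4% in test 2. The domain spanned 26040 bp when joined across tumors and ran from the start into the gene. It was called as 1 peak of 25900 bp in control 1, 25943 bp in control 2 and 26007 bp in test 1, and as 3 peaks in test 2, of which the widest had 21294 bp. These were among the widest peaks of the genome, with only 9, 6, 10 and 9 wider peaks in the 4 tumors. All 6 annotated Gata3 starts had a peak within 1 kb in every tumor. The genes 4930412O13Rik and 9230102O04Rik and the antisense transcript Gm13256 start inside the domain, so its acetylation cannot be assigned to Gata3 alone.

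Downstream of Gata3 lay a second cluster of regions between 54.6 and 78.6 kb from the start. Regions at 64.5, 68.9, 71.6 and 78.6 kb were present in all 4 tumors, and the one at 68.9 kb was the widest of them, with 2829, 2109, 2571 and 2645 bp. Narrow regions at 65.7 and 66.5 kb were missing in control 2. The region at 54.6 kb was present in both test tumors and in neither control tumor, over 225 bp in test 1 and 631 bp in test 2. It was the only region of the 8 windows with this pattern, and in test 1 alone 2 more regions were found at 31.2 and 34.9 kb. The region at 54.6 kb (660 bp joined, chr2:9835095-9835754, intergenic) was no longer test-only when peaks had to cover 0.5 of the region, or when peaks under 1 kb were left out.

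The central 300 bases of this test-only region (chr2:9835275-9835574) and of the shared region at 68.9 kb (chr2:9820988-9821287) are printed for comparison, both on the minus strand.
Gata3 at 54.6 kb, test-only: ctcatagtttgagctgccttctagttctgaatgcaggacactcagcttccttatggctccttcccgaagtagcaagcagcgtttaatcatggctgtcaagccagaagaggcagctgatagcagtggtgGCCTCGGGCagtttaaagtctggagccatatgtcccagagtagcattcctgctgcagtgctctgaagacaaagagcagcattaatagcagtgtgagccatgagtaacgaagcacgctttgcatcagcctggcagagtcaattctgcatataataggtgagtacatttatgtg
Gata3 at 68.9 kb, all tumors: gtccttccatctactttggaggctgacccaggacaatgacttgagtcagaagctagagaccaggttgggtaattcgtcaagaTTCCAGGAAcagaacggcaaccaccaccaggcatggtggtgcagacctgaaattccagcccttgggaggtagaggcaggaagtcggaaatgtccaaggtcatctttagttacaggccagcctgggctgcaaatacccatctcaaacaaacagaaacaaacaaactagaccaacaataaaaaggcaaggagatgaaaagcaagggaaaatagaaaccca
Peaks covered 45 of the 300 test-only bases in test 1 and all 300 in test 2, and all 300 shared bases in every tumor. The test-only sequence held 1 AP-2 match, a motif in 11.4% of all joined regions, and the shared sequence held 1 STAT match, a motif in 9.98% of them. Neither held a GATA match, the motif that GATA3 itself binds.

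GATA3 is also the lineage factor of T helper 2 cells, and CD4+ T cells had been transferred into all of the mice. Over 14 T cell markers, 2 and 3 promoters had a peak in controls and 3 and 1 in test tumors, with none at Cd3e or Cd4 in any tumor. In coverage, 4 of the 14 were higher in both test tumors (17.3% of all covered genes) and 3 in both control tumors (13%), and Cd3e (9.06% and 9.07% against 10.1% and 12.7%) and Cd4 (10.8% and 10.5% against 11.8% and 10.9%) were among the 4. Cd3d was also among the 4, and its window overlaps that of Cd3e. The 14 T cell windows summed to 113 and 108 kb of peaks in control tumors and to 119 and 94.0 kb in test tumors. The difference turned from -3.93 to 8.51 kb without test 2. Test 1 was thus highest and test 2 lowest, as for Gata3. The windows of the absent hepatocyte markers had this order too, at 18.1 and 12.3 kb against 18.3 and 6.31 kb, so it was not particular to T cell markers. Of 8 T helper 2 markers, 1 promoter had a peak in each tumor, that of Maf, and Il4, Il5 and Il13 had no promoter peak in any. T helper 2 windows summed to 36.7 and 36.0 kb in control tumors and 33.6 and 30.0 kb in test tumors, a difference of -4.55 kb, or -2.78 kb without test 2, and 5 of the 8 were higher in both control tumors (13% of all covered genes) and 0 in both test tumors (17.3%). Il4, Il5 and Il13 were among the 5, and the window of Il13 overlaps those of Il4 and Il5. What part T cells had in the Gata3 signal was not tested.

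**Figure D2:**
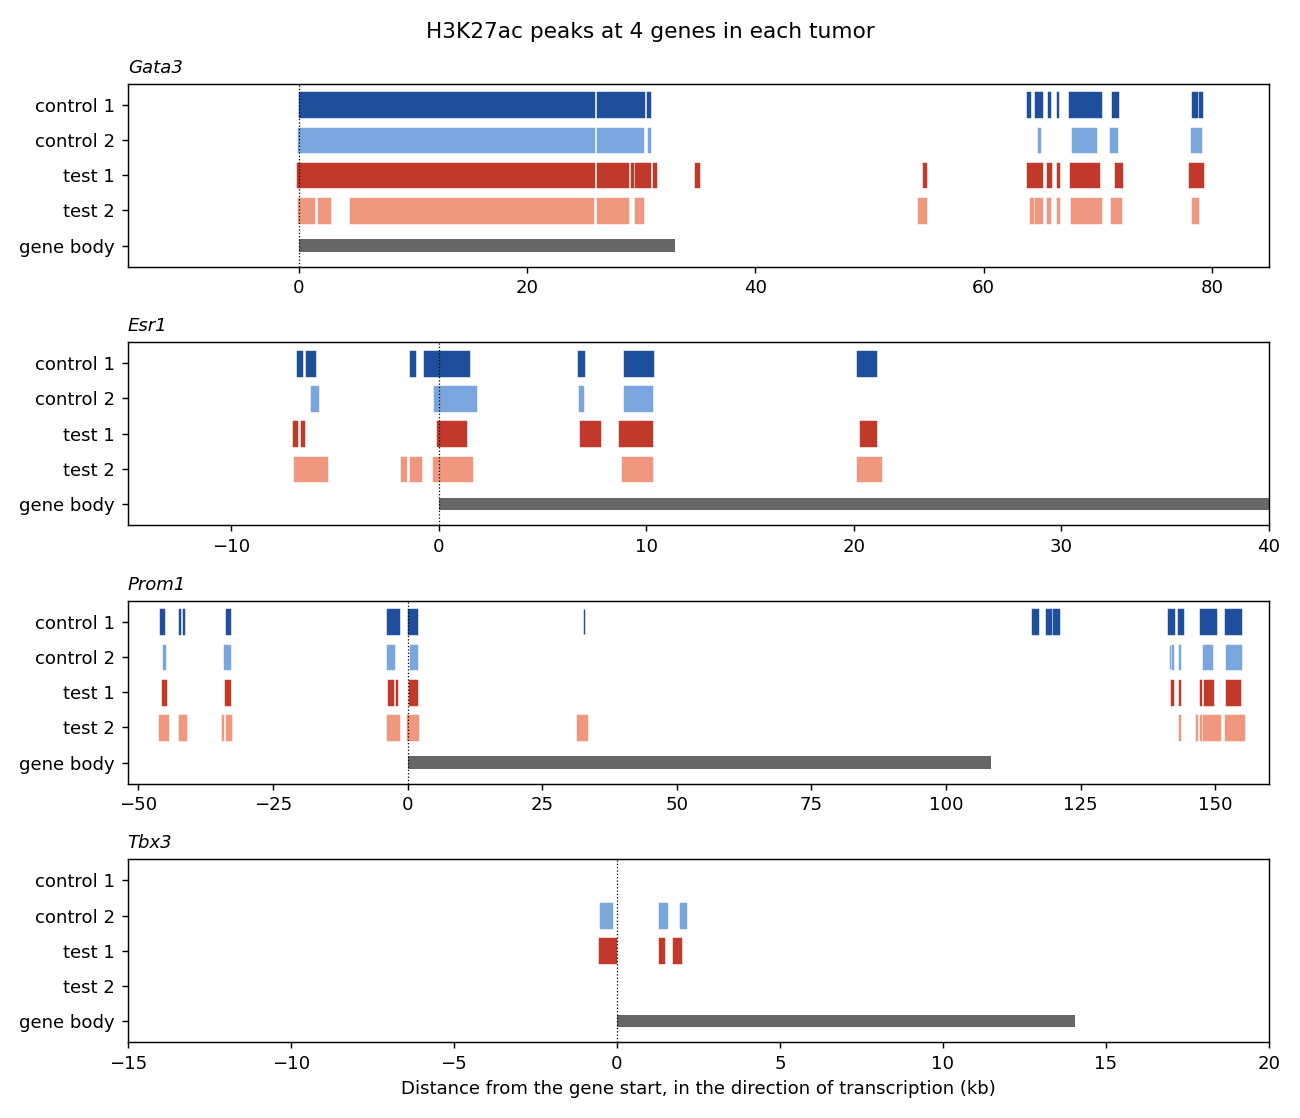
H3K27ac peaks of each tumor at Gata3, Esr1, Prom1 and Tbx3 by distance from the gene start along transcription in kb, with the gene body in grey below and the dotted line at the start. Bars are peaks, outlined so that narrow ones show. The Gata3 domain spans most of the gene in all 4 tumors, whereas Tbx3 peaks are in control 2 and test 1 only. The axis leaves out 1 peak of test 2 at 421 kb of Esr1.

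Tbx3 (ENSMUSG00000018604, chr5:119670669-119684724, plus strand), a T-box factor needed for mammary bud formation, differed between tumors of the same group. Control 2 and test 1 each had 3 peaks in the window of 114 kb, and control 1 and test 2 had 0. Coverage was 0% in control 1 and 0.722% in control 2, and 0.828% in test 1 and 0% in test 2. The means of 0.361% ± 0.510 (SD, n = 2) for control and 0.414% ± 0.585 (SD, n = 2) for test tumors did not differ beyond the spread (exact permutation test, two-sided, p = 1). The difference was 0.0530 percentage points. It was 0.467 without test 2 and 0.414 without control 2, against -0.361 without test 1 and -0.308 without control 1. In control 1 and test 2, the nearest peak lay 360 and 446 kb from the Tbx3 start. Peaks of control 2 and test 1 overlapped in all 3 regions, by 370, 166 and 42 bp. They lay at -0.285 kb, with 370 and 520 bp, at 1.42 kb, with 265 and 166 bp, and at 1.93 kb, with 188 and 258 bp, so all were narrow. The antisense gene Tbx3os1 starts at 0.696 kb, among these regions.

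The centre of the Tbx3 promoter region (chr5:119670234-119670533, plus strand) is printed, since it marks the start at which tumors within each group differed.
Tbx3 at -0.285 kb: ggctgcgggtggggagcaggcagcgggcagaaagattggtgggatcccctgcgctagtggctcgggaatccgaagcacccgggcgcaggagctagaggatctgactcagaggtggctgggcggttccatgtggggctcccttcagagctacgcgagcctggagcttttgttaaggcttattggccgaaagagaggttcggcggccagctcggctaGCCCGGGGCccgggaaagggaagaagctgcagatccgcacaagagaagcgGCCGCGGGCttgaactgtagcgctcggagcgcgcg
It held 2 AP-2 matches and 25 CpG, the most CpG of the 42 region centres in the 8 windows.

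Tnfsf11 (ENSMUSG00000022015, chr14:78277445-78308043, minus strand), which encodes RANKL, the paracrine signal of progesterone, was the only one of the 8 genes at which the groups did not overlap. Its window of 131 kb held 1 peak in control 1, 2 in control 2 and 0 in both test tumors. The control tumors had 0.136% and 0.332% of the window covered, and the test tumors had 0%. Both control tumors were therefore higher, a pattern that 13% of covered protein-coding genes shared. The difference of the means, 0.234% ± 0.139 (SD, n = 2) against 0%, was -0.234 percentage points (exact permutation test, two-sided, p = 0.333, the smallest possible). These peaks were 177 bp at -28.4 kb in control 1, and 273 bp at 19.6 kb and 160 bp at 72.4 kb in control 2, so the control tumors shared no region. In control 1, 62934 of 69861 peaks were wider. No tumor had a peak at the Tnfsf11 start. The groups no longer separated once the lists were trimmed to equal numbers of peaks, within 10 kb either side of the gene, or with peaks at least 1 kb wide.

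RANKL is also made by T cells and stromal cells. Of the windows given above, those of T cell markers were highest in test 1 and lowest in test 2. Those of T helper 2 markers were higher in both control tumors. Fibroblast marker windows summed to 75.8 and 62.7 kb of peaks in control tumors and to 57.6 and 39.5 kb in test tumors. Both control sums thus exceeded both test sums, the order seen for Tnfsf11. Without test 2 the fibroblast difference changed from -20.7 to -11.7 kb. Of 11 covered fibroblast genes, 5 were higher in both control tumors (13% of all covered genes) and 1 in both test tumors (17.3%). Windows of neuronal markers, for an absent tissue, had this order too, with 38.7 and 34.8 kb against 34.0 and 33.7 kb. The order was therefore not particular to fibroblast markers. Myeloid windows summed to 172 and 155 kb in control against 150 and 122 kb in test tumors, with 8 of 14 genes higher in both control tumors (13% of all covered genes), 1 higher in both test tumors (17.3%) and a median difference of -1.36 percentage points, or -0.596 without test 2. Their summed difference was -27.6 kb, and -13.2 kb without test 2. The windows of C1qa, C1qb and C1qc overlap, so shared peaks were counted more than once. All of these are among the 8 myeloid genes higher in both control tumors. Endothelial windows summed to 84.7 and 85.5 kb against 78.1 and 70.0 kb, a difference of -11.0 kb, or -6.98 kb without test 2. The part of these cells in the Tnfsf11 values was not tested. The 2 genes with the coverage most like Tnfsf11 over the 4 tumors were Disp3 and Klhl34, by the summed absolute difference. Disp3 had 0.152%, 0.316%, 0% and 0%, in the tumor order used above, a summed difference of 0.0322 percentage points. Klhl34 had 0.152%, 0.380%, 0% and 0%, a summed difference of 0.0646.

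Prom1 (ENSMUSG00000029086, chr5:43993620-44102032, minus strand) had an acetylated promoter in every tumor and differed widely between the tumors of each group. Its window of 208 kb held 15 peaks in control 1 and 9 in control 2, and 12 in test 1 and 12 in test 2. Coverage was 8.21%, 4.21%, 4.25% and 8.46%. Control 1 and test 2 were high, control 2 and test 1 were low, and the groups overlapped. The means were 6.21% ± 2.83 (SD, n = 2) for control and 6.35% ± 2.98 (SD, n = 2) for test tumors, and the difference of 0.145 percentage points was far smaller than the SD (exact permutation test, two-sided, p = 0.667). It was 0.467 within 10 kb either side of the gene, and 2.09 over the bases nearer to the Prom1 start than to any other start of a protein-coding gene, where the groups also overlapped. The difference was -1.96 percentage points without test 2 and -1.85 without control 2, against 2.25 without test 1 and 2.14 without control 1. Prom1 coverage exceeded that of 73.6%, 55.0%, 53.9% and 78.0% of all genes. Part of it lay nearer to the start of Fgfbp1 than to that of Prom1, so it cannot be assigned to Prom1 alone. Peaks covered 1.63%, 1.13%, 1.36% and 3.43% of the Prom1 gene body.

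The Prom1 peaks formed 16 regions, and 7 of them were present in all 4 tumors. The promoter region had 1585 bp in control 1 and 1227 in control 2, and 1479 in test 1 and 2172 in test 2. A region at -2.73 kb had 2390, 1161, 1272 and 2314 bp, wider in control 1 and test 2. Another at -45.4 kb had 625, 345, 397 and 1677 bp. The widest regions lay downstream, at 149 and 154 kb, nearer to Fgfbp1 than to Prom1, with 2823, 1675, 1584 and 3457 bp and with 2909, 2751, 2780 and 3434 bp. Control 1 and test 2 were the widest in these 5 regions. This order did not hold in the other 2, at -33.4 kb, with 767, 1050, 952 and 948 bp, and at 143.5 kb, with 987, 247, 169 and 211 bp.

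The tumors with high Prom1 coverage also differed in where it lay. Control 1 alone had 4 regions between 117 and 121 kb, of 380 to 1236 bp, at or beside Fgfbp1, a secreted carrier of fibroblast growth factors whose promoter had a peak in control 1 only. In an intron at 32.4 kb, test 2 had a peak of 1742 bp, control 1 had 180 bp and the other tumors had none. The same pair shared a region at -41.8 kb, over 454 bp in control 1 and 1247 bp in test 2. Test 2 alone had 2 further narrow regions. Annotated starts farther into the gene, from 7.26 to 97.1 kb, had no peak within 1 kb in any tumor.

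The intronic centre (chr5:44069462-44069761) and the centre at -2.73 kb (chr5:44104610-44104909) are printed on the minus strand as a variable and a shared Prom1 sequence.
Prom1 at 32.4 kb: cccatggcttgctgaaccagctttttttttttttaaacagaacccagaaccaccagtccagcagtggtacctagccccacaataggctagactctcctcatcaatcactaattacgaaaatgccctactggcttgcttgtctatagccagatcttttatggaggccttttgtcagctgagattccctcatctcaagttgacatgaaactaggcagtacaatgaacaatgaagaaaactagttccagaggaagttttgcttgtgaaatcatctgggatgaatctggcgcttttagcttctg
Prom1 at -2.73 kb: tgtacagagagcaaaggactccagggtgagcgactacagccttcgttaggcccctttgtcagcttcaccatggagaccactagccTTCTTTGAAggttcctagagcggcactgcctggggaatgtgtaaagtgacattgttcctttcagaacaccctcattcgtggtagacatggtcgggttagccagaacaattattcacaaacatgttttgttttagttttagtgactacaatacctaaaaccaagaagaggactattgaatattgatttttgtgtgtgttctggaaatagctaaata
Peaks covered the intronic bases in test 2 alone, as the peak of control 1 lay beside them. The intronic sequence held 0 motif matches and the upstream sequence held 1 STAT match.

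Considered together, the 8 windows did not separate the groups. Of the 6 genes with any coverage, 0 were covered more in both test tumors, where 17.3% of all covered genes were, and 1 was covered more in both control tumors, namely Tnfsf11, where 13% were. Without test 2, 2 genes (Gata3 and Tbx3) were higher in the remaining test tumor than in both control tumors. Without control 1, Esr1 and Prom1 were higher in the test group, and Pgr and Tnfsf11 in the remaining control tumor. Without test 1, Esr1 and Prom1 were higher in the remaining test tumor, and Gata3 and Tnfsf11 in both control tumors. The genes that separated the groups thus changed with the tumor left out, except for Tnfsf11. Over the 6 covered genes the median difference was 0.0990 percentage points, against 0.0192 over all covered genes. It was 0.00180 without test 2 and 0.162 without control 1, against -0.142 without test 1 and -0.136 without control 2. The windows held 42 joined regions. Of these, 16 (38.1%) were present in all 4 tumors, as were 38.1% of all joined regions, and in 1 of the 16, at Esr1, the 4 tumors had no base in common. A further 14 (33.3%) were present in 1 tumor, against 36.2%. There was 1 test-only region (2.38%, against 1.47%) and there were 0 control-only regions, against 3.41%. Both shares of specific regions thus rest on a count of 1 or 0.

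Width went with sharing. Regions present in all 4 tumors had a median of 1925 bp, from 987 to 26040 bp, and those in 1 tumor a median of 237 bp, from 160 to 1236 bp. Over all joined regions the medians were 1688 and 215 bp. Joined regions are wider where more tumors contribute, so part of this follows from the joining. By place, 5 of the 42 regions lay at the promoter of a member, 9 elsewhere in a gene body (6 intronic and 3 exonic), 8 upstream and 20 downstream. None of the 42 centres held the estrogen response element (0.0296% of all regions did), 1 held a forkhead match (2.38%, against 4.42%) and 5 a GATA match (11.9%, against 12.6%). An AP-2 match was in 7 (16.7%, against 11.4%) and a STAT match in 6 (14.3%, against 9.98%). These letters in a 300-base window say nothing of binding.

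**Figure D3:**
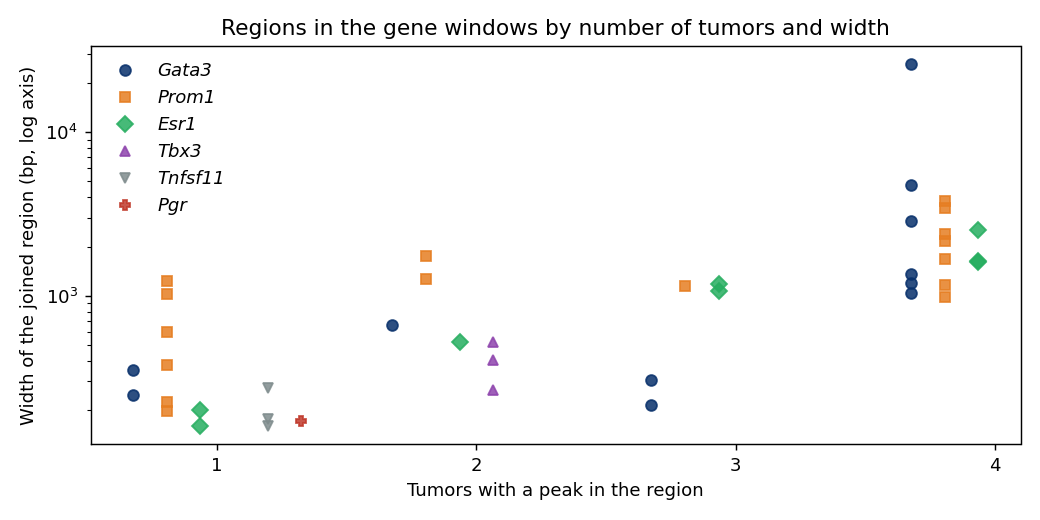
Width of each of the 42 joined regions in bp (log axis) by the number of tumors with a peak in it, with 1 point per region and a symbol for each gene. Regions in all 4 tumors belong to Gata3, Prom1 and Esr1 and are 987 bp or wider, and all regions of Tnfsf11 and Pgr are in 1 tumor.

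Other genes of hormone response were then placed beside the 8. Of all covered genes, 17.3% were higher in both test tumors and 13% in both control tumors, and each count below is to be read against these shares. Of 7 receptors, 2 were covered more in both test tumors and 0 in both control tumors. Prlr, the prolactin receptor, had 4.24% and 3.81% in control and 5.05% and 5.98% in test tumors, with a promoter peak in all 4. Esr2, estrogen receptor beta, had 2.31% and 2.30% in control and 2.73% and 3.07% in test tumors, and its promoter had a peak in both test tumors and in neither control tumor. Nr3c1, the glucocorticoid receptor, had no peak within 1 kb of its gene start in any tumor. Peaks still covered 4.69% and 3.12% of its window in control and 3.85% and 3.26% in test tumors. Receptor promoters were thus acetylated in 4, 4, 5 and 5 of 7 genes, where 53.5%, 53.9%, 54.1% and 52.0% of all genes had a promoter peak. Among the 8 genes the Esr1 promoter had a peak in every tumor and the Pgr promoter in none.

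Of 7 paracrine ligands and decoys, 6 had coverage, of which 1 was covered more in both test tumors (17.3% of all covered genes) and 0 in both control tumors (13%). This was Btc, betacellulin, at 0.841% and 0.647% in control and 0.903% and 0.860% in test tumors, a difference of 0.137 percentage points. Areg, amphiregulin, the epidermal growth factor ligand induced by estrogen, had a promoter peak in test 2 alone, whereas the promoter of Tnfrsf11b, the RANKL decoy, had a peak in all 4.

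Of 15 coregulators and partner factors, 3 were covered more in both control tumors (13% of all covered genes) and 0 in both test tumors (17.3%), with a median difference of -0.305 percentage points that turned to 0.239 without test 2. Spdef had 7.92% and 8.77% in control and 7.61% and 5.30% in test tumors. Nrip1, a corepressor of the estrogen receptor, had 4.41% and 4.41% against 4.31% and 3.67%. In both of these, test 2 was lowest. Without it, the difference fell in size from -1.89 to -0.738 percentage points for Spdef and from -0.421 to -0.0979 for Nrip1. Promoters of 13 of the 15 had a peak in all 4 tumors (49.6% of all genes).

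Of 15 hormone target genes, 2 were covered more in both test tumors (17.3% of all covered genes) and 2 in both control tumors (13%), near the background in both directions. Igfbp4, an insulin-like growth factor binding protein gene, had 11.6% and 11.3% in control and 9.13% and 5.47% in test tumors, a difference of -4.14 percentage points, or -2.32 without test 2. Stc2, a stanniocalcin gene, had 0.361% and 2.23% against 2.49% and 4.30%, a difference of 2.10 percentage points, or 1.19 without test 2. Fkbp4, a chaperone of steroid receptors, had 4.48% and 4.94% against 6.32% and 5.66%. Of the classical estrogen targets, Greb1, Pdzk1, Tff1 and Tff3 had no promoter peak in any tumor, while Ccnd1 and Myc had one in all 4. Promoters of 9 of the 15 had a peak in every tumor (49.6% of all genes) and those of 6 had none in any (42.8%), and the unmarked targets are given as values, not as a feature of the list.

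The luminal progenitor and alveolar genes, which mark the hormone receptor-negative luminal branch, had the highest coverage of the 5 pathway lists. Median coverage was 16.5% and 14.2% in control and 15.1% and 13.8% in test tumors, and 8 of 10 promoters had a peak in all 4 tumors (49.6% of all genes). Of these, 1 was covered more in both test tumors (17.3% of all covered genes) and 1 in both control tumors (13%), no more than the background. Kit had 6.49% and 3.52% in control and 6.75% and 6.52% in test tumors, where test 2 exceeded control 1 by less than the spread of the control tumors. Aldh1a3 had 6.58% and 5.89% against 4.41% and 3.20%, and a promoter peak in control 1 alone. The median over the 8 hormone-sensing genes was 0.0678%, 0.527%, 0.414% and 0% in the 4 tumors.

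**Figure D4:**
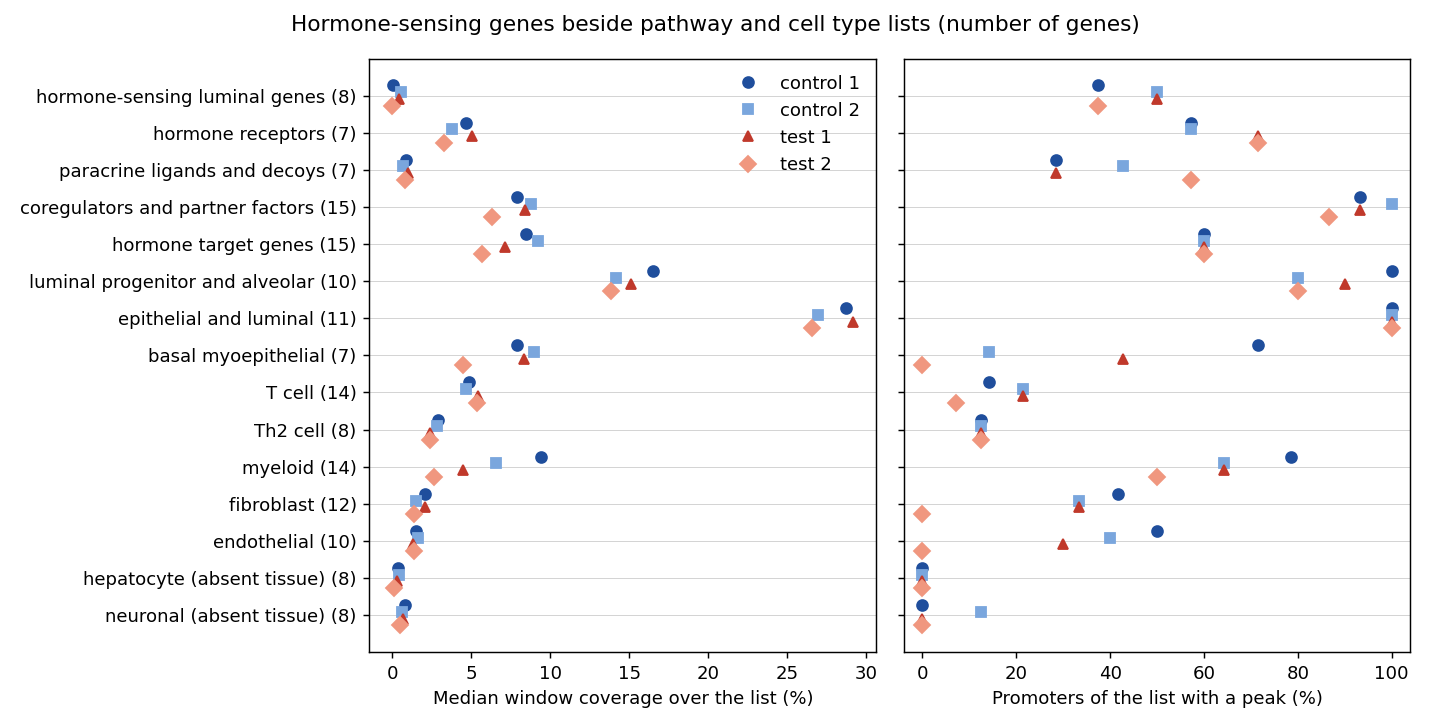
Median window coverage in percent (left) and percent of promoters with a peak (right) for the 8 hormone-sensing genes and 14 other lists, with 1 symbol per tumor and the number of genes in brackets. The 8 genes sit near the absent tissues in median coverage and between the lists in promoters, and test 2 lies at 0 for the basal, fibroblast and endothelial promoters.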

How the data were processed

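Peak lists for H3K27ac from 4 tumors were used, and input samples were not used here. Reads had been aligned by the authors to mm10 using BWA, and MACS2 had called peaks tumor by tumor against input. The deposited files, cleaned and merged according to their names, hold a chromosome, a start and an end for each peak and no score, height or p-value, so depth and signal are unknown and a wide peak cannot be told from a strong one. Groups were taken from the genotype in the labels.

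From these lists, the percent of a window (gene body plus 50 kb either side, GENCODE M21) lying in peaks was computed for all 21938 protein-coding genes with Python 3.11.15 and numpy 2.4.6. Genes at 0 in all tumors did not enter counts of order, where a gene was called when both tumors of a group exceeded both of the other. Windows of neighbouring list genes can overlap, so a peak can enter the counts and sums of a list more than once. Peaks of the tumors were joined into regions where they shared at least 1 bp, and a region was test-only or control-only when present in both tumors of that group and in neither of the other. Promoters were 1 kb either side of the gene start. Other annotated starts were examined for the 8 genes only, so a list gene without a promoter peak may have one at another start. Means were compared by an exact permutation test over the 4 tumors (two-sided, 6 splits), in which no p-value can go below 0.333, and coverage and order were tested on simulated data. Sequences came from the RefSeq promoter table, which held 7 of the 8 genes, and from the GRCm38.p6 genome.

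All 8 genes are described. From each pathway list up to 3 genes were named, those with the largest absolute difference among genes where the groups did not overlap, and for each non-overlapping member the 2 genes of most similar coverage. Some list genes that this rule names are not reported here. Further list genes in the text were picked after their values were seen. The 8 genes, the lists and the tests were chosen with earlier results of these data known. Alternatives varied the flank, the peaks, the joining, the promoter and the tumors.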

Additional observations from a re-analysis of the deposited data

How the results depend on the processing

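With all tumors kept, 49 of 56 alternative values for single genes moved by no more than the SD between tumors, and 31 of 40 alternative counts and medians were within 1.5 times (or 1 SD) of the reported value. The first count is lenient. Foxa1 and Cited1 could only stay at 0 except with 100 kb. The pooled SD was 1.64 for Gata3 and 2.90 for Prom1, above their differences, so a change of sign could count as unmoved. With 10 kb either side of the gene, 0 genes were covered more in both control tumors, 0 regions were test-only, and the Gata3 difference was -2.14 percentage points. With 100 kb the difference was 0.113 for Pgr, 0.00703 for Foxa1, -0.128 for Cited1 and -0.716 for Tnfsf11. With peaks at least 1 kb wide, 0 genes were higher in both control tumors, 0 regions were test-only and the Tnfsf11 difference was 0. With every list trimmed to its widest peaks at equal number, 0 genes were higher in both control tumors and the Tnfsf11 difference was -0.105. Counting bases nearest to the start of the gene gave 1 gene higher in both test tumors (Gata3) and 0 test-only regions. Coverage relative to the total of each tumor also gave 1 gene higher in both test tumors (Gata3). When peaks had to cover 0.5 of a region, 0 were test-only. Leaving out each tumor in turn gave 0 to 2 genes higher in the test group, 1 to 2 higher in the control group, 1 to 5 control-only regions, 1 to 6 test-only regions, a median difference of -0.142 to 0.162, and a Tnfsf11 difference of -0.332 to -0.136. These counts rise by construction where a group has 1 tumor. The number of genes with a promoter peak in every tumor was 3 under all alternatives run. The cause of the other changes was not tested. No paired analysis was possible because the replicate numbers only name the tumors. Without scores or read counts, strength of acetylation within a peak was not measured, and the exact test over 2 tumors a group cannot give a p-value below 0.333. Differences of named list genes and of lists without test 2 were added after seeing the data.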

Other observations

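Some partner factors of the estrogen receptor had wide coverage in every tumor. They were chosen once the values were known, from the list of 15 coregulators and partner factors. Xbp1, a factor of the secretory pathway, had 32.9% and 28.0% of its window in peaks in control tumors and 34.9% and 29.4% in test tumors. Tfap2c, the AP-2 gamma gene, had 22.1% and 22.7% in control and 22.7% and 19.3% in test tumors, and Tfap2a, the AP-2 alpha gene, had 17.5% and 17.3% against 17.5% and 16.5%. Grhl2, an epithelial factor, had 17.4% and 15.4% against 20.5% and 16.6%. At each of these 4 genes the groups overlapped and the promoter had a peak in all 4 tumors, whereas the Foxa1 window was at 0. Other genes of the list were lower, such as Myb at 2.40% and 2.89% in control and 1.75% and 2.92% in test tumors, and Ncoa1 at 3.20% and 2.14% against 2.68% and 2.66%. Runx1, a factor of luminal and basal cells as well as blood cells, had 24.5% and 17.7% in control tumors, 23.1% in test 1 and 8.53% in test 2, with a promoter peak in every tumor except test 2.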
